A study of Mus musculus with 4 samples.

Results

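C-type lectin receptors are surface proteins with which myeloid cells bind sugars and lipids of microbes, or molecules released by damaged cells. The account covers 10 of their genes, *Clec4a1*, *Clec4a2*, *Clec4a3*, *Clec4b1*, *Clec4d*, *Clec4e*, *Clec4n*, *Clec5a*, *Clec7a* and *Clec12a*, which were chosen by name, from the Dectin and DCIR gene clusters and beyond, out of the 24346 genes listed for each library. All 10 were found, and all 10 passed the filter on low values, with which 11718 genes were tested. The libraries came from *in vitro* MDSCs, immature myeloid cells grown from the BM of C57BL/6J mice (female, 6 to 8 weeks old) for 4 days in 40 ng/ml GM-CSF. Control is the culture with GM-CSF alone (2 biological replicates), and G-CSF is the same culture with 5 ng/ml G-CSF added (2 biological replicates). Every library, Control included, was therefore made from cells grown in GM-CSF, and from the whole culture rather than from a sorted subset.

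Some activating members of the family signal through an ITAM (a paired tyrosine motif) in a partner chain such as FcRγ (*Fcer1g*) or DAP12 (*Tyrobp*). Others signal through an ITAM-like motif in their own tail. The kinase SYK and the adaptor CARD9 then carry the signal to NF-κB and to cytokine genes. Inhibitory members carry an ITIM, which recruits phosphatases that restrain other receptors. In monocytes, neutrophils and dendritic cells these receptors are best known for recognising fungi and mycobacteria.

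With G-CSF, the receptor for fungal mannans Dectin-2 (*Clec4n*), the β-glucan receptor Dectin-1 (*Clec7a*) and 3 genes of the DCIR cluster (*Clec4a2*, *Clec4a3* and *Clec4b1*) were lower, and the DAP12-coupled receptor gene *Clec5a* was higher. The mean FPKM of the lower genes differed by -23.7% (*Clec4a2*) to -36.4% (*Clec4b1*), and that of *Clec5a* was 19.9% higher. The other 4 members, *Clec4a1*, *Clec4d*, *Clec4e* and *Clec12a*, had lower means with G-CSF and did not pass the test. Thus 5 of 10 members passed an adjusted p of 0.05 as lower, against 11.8% of all genes tested, and 1 of 10 as higher, against 13.0% (limma on log2(FPKM + 0.1), Benjamini-Hochberg adjustment over all genes tested). None changed by more than 2-fold (0 of 10 members, with limma and with limma voom). Of all genes tested, 1.37% did at the same adjusted p with limma, so a count of 0 among 10 does not set the members apart. The median log2 fold change was -0.39 over the 10 members and 0.003 over all genes tested.

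FPKM is the number of reads scaled to transcript length and library size, so levels can be set side by side between genes. From the steps in which low FPKM values rise, the libraries held an estimated 12450000 to 15700000 reads, and each member had between 26 and 14500 estimated reads per library, fewest for *Clec4b1* and most for *Clec4n*. The label was checked against genes of CD11b+ Gr-1+ cells: *S100a8* stood at 25564.8 FPKM or more, *Ly6c2* at 999.6 or more and *Itgam* (CD11b) at 395.2 or more in each library. *Ly6g*, which defines the granulocytic subset, was not analysed here. The extraction text of the labels names liver, but the liver genes *Alb*, *Apoa1*, *Ttr* and *Cyp3a11*, picked after the values were seen, were listed at 0 in every library. Since the libraries are bulk RNA, fewer cells of a type and less RNA of a gene per cell cannot be told apart in any of the values.

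**Figure D1:**
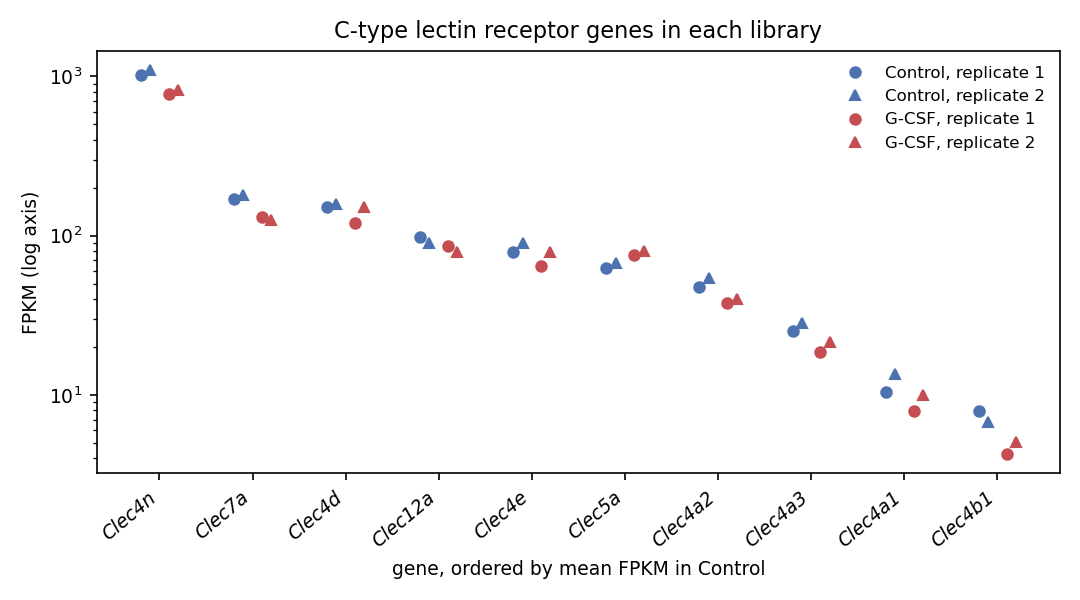
FPKM of the 10 receptor genes (log axis), ordered by their mean in Control, with 1 point for each library (circles, replicate 1; triangles, replicate 2; blue, Control; red, G-CSF). *Clec4n* lies far above the other genes, the red points of most genes lie below the blue, and those of *Clec5a* lie above.

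*Clec4n* was the highest member in every library. It stood at 1016.48 and 1096.48 FPKM in Control and at 774.54 and 825.501 FPKM with G-CSF, so that both G-CSF libraries lay below both Control libraries. Among all 24346 genes it ranked at 92 and 80 in the libraries of the Control cultures, and at 126 and 125 in those given G-CSF. The 10 members summed to 1667.3 and 1784.5 FPKM in Control and to 1320.6 and 1416.2 FPKM with G-CSF, and *Clec4n* alone made up 61.0% and 61.4% of these sums in Control and 58.6% and 58.3% with G-CSF. In Control, the order below *Clec4n* was *Clec7a*, *Clec4d*, *Clec12a*, *Clec4e*, *Clec5a*, *Clec4a2*, *Clec4a3*, *Clec4a1* and *Clec4b1*, and the ranges of neighbours in this order did not overlap. With G-CSF, the ranges of *Clec4d* and *Clec7a* overlapped, as did those of *Clec12a*, *Clec5a* and *Clec4e* in turn, so the order among these genes was not resolved by 2 libraries. The lower part of the order, from *Clec4a2* to *Clec4b1*, was the same in both groups.

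Both complexes that hold most of the members lie on chromosome 6 of GRCm38. *Clec4a1*, *Clec4a3*, *Clec4b1*, *Clec4a2*, *Clec4n*, *Clec4d* and *Clec4e* lie in this order between 122921848 and 123289870, on the plus strand except for *Clec4e*. *Clec12a* (129342691 to 129365303, plus strand) and *Clec7a* (129461591 to 129472779, minus strand) lie farther along the chromosome. *Clec5a* (40574894 to 40585821, minus strand) stands apart from both. GENCODE M21 labels 9 of these genes protein-coding and *Clec7a* a polymorphic pseudogene, a class for genes that are intact in some strains and not in others. The 250 bases before the RefSeq start (GRCm38.p6) are shown for the member with the smallest p (*Clec7a*), the member with the largest fall (*Clec4b1*) and the member that rose (*Clec5a*), so that genes that moved in opposite directions can be compared. Capitals mark matches, on either strand, to TTGCNNAA (the C/EBP motif), GAGGAA (a PU.1 core), TTCNNNGAA (a STAT motif) and TGANTCA (the AP-1 motif), where N is any base.
*Clec7a*, chr6:129472780-129473029, minus strand: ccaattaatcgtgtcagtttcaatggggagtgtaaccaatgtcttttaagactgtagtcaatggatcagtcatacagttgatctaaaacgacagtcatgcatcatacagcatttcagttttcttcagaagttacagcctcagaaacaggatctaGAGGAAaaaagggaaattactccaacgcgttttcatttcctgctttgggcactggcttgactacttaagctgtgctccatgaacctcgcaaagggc
*Clec4b1*, chr6:123049712-123049961, plus strand: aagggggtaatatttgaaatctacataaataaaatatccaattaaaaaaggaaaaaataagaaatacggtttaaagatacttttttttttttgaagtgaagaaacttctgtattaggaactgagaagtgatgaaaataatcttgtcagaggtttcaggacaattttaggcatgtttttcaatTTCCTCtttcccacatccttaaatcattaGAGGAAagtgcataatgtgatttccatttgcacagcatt
*Clec5a*, chr6:40585806-40586055, minus strand: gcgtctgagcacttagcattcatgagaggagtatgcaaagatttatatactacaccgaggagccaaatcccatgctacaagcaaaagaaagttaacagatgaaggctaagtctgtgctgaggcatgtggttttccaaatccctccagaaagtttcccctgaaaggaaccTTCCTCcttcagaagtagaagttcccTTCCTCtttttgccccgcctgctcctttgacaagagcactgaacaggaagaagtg

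In these 3 windows, every match was to GAGGAA. It begins 96 bases before the start of *Clec7a*, 68 and 39 before that of *Clec4b1*, and 81 and 55 before that of *Clec5a*. Of the 9 members with a promoter entry (*Clec4n* had none), 7 held GAGGAA, as did 23.3% of all 32851 promoter windows of this length. TTGCNNAA was present in 2 of 9 (*Clec4e* and *Clec12a*; 9.56% of all windows), TTCNNNGAA in 1 (*Clec4a2*; 7.02%) and TGANTCA in 1 (*Clec12a*; 6.75%). GAGGAA was thus present before the gene that was higher with G-CSF and before both genes shown that were lower. TTCNNNGAA and GAGGAA can overlap by their shared GAA. A match describes the letters only.

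Of the activating receptors, the genes of Dectin-2 and Dectin-1 were lower with G-CSF, their means by -24.3% and -26.6%. *Clec4n* encodes Dectin-2, which signals through FcRγ. Control cultures had a mean of 1056.5 ± 56.6 FPKM (SD, n = 2 libraries), and G-CSF cultures had one of 800.0 ± 36.0 FPKM (SD, n = 2 libraries). The log2 fold change was -0.40 (standard error 0.0601, limma adjusted p = 0.00751). *Clec7a* encodes Dectin-1, which carries its own ITAM-like motif. It stood at 169.765 and 179.308 FPKM in Control and at 131.09 and 125.267 FPKM with G-CSF. The groups did not overlap, and the log2 fold change was -0.44 (standard error 0.0492, limma adjusted p = 0.00404), the smallest p among the members. For both genes the call held under all 12 alternatives, the omission of each library in turn included.

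*Clec4d* and *Clec4e*, neighbours in the complex, encode MCL and Mincle, which bind the mycobacterial cord factor. Both had 1 G-CSF library within or just above the lower end of the Control range. *Clec4d* stood at 150.438 and 158.98 FPKM in Control and at 120.145 and 151.868 FPKM with G-CSF (log2 fold change -0.20, standard error 0.104, limma adjusted p = 0.211). *Clec4e* stood at 78.917 and 89.489 FPKM in Control and at 64.306 and 78.949 FPKM with G-CSF (-0.24, standard error 0.104, limma adjusted p = 0.142). The 95% intervals of the log2 fold change, -0.44 to 0.05 for *Clec4d* and -0.49 to 0.01 for *Clec4e*, include both no difference and a fall as large as that of *Clec4n*. These values moved with the G-CSF library left out. Without G-CSF replicate 2, *Clec4d* had a log2 fold change of -0.36 (adjusted p = 0.0127, limma) and *Clec4e* one of -0.39 (adjusted p = 0.024, limma). Without G-CSF replicate 1, the values were -0.03 and -0.09 (adjusted p = 0.814 and 0.504, limma).

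*Clec4b1* encodes DCAR, an FcRγ-coupled receptor next to the inhibitory DCIR genes, and was the lowest member. It stood at 7.901 and 6.73 FPKM in Control (53 and 48 estimated reads) and at 4.237 and 5.064 FPKM with G-CSF (26 and 40 estimated reads). Its log2 fold change of -0.64 (standard error 0.129, limma adjusted p = 0.0166) was the largest among the members and rests on the fewest reads. The call was lost without Control replicate 1 (adjusted p = 0.0576, limma) and without G-CSF replicate 1 (adjusted p = 0.0533, limma).

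**Figure D2:**
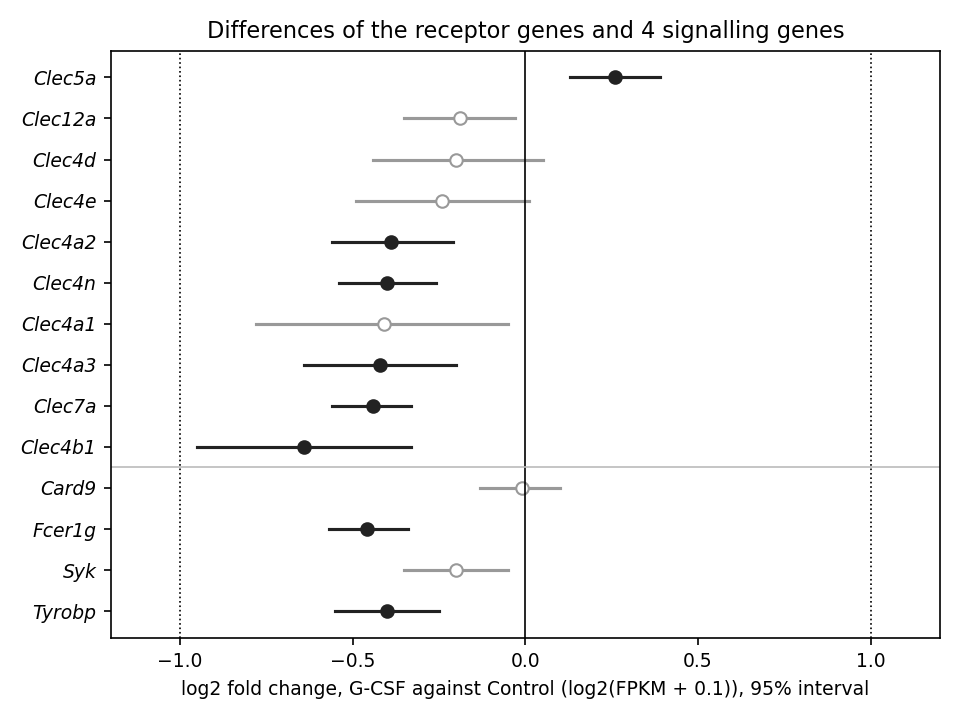
Log2 fold change of the 10 receptor genes (above the grey line) and of *Card9*, *Fcer1g*, *Syk* and *Tyrobp* (below it), with 95% intervals from limma; filled points passed an adjusted p of 0.05, and the dotted lines mark a 2-fold change. *Clec5a* alone among the receptors lies to the right of 0, and no gene reaches a dotted line.

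*Clec5a* was the member that was higher with G-CSF. It encodes MDL-1, a receptor that depends on DAP12 and is known as a receptor for dengue virus on myeloid cells. Its level was 62.553 and 66.976 FPKM in Control and 75.647 and 79.665 FPKM with G-CSF. Both G-CSF libraries lay above both Control libraries, and the difference was 0.26 on the log2 scale (standard error 0.0545, 95% interval 0.13 to 0.39, limma adjusted p = 0.0186). The rise is small, and the call was lost without Control replicate 1 (0.21, adjusted p = 0.074, limma) and without G-CSF replicate 2 (0.22, adjusted p = 0.0639, limma). Relative to *Clec7a*, *Clec5a* stood at 36.8 and 37.4 FPKM per 100 FPKM in Control and at 57.7 and 63.6 with G-CSF, as follows from a higher *Clec5a* and a lower *Clec7a*. With 2 libraries in each group, an exact permutation test of such a ratio cannot give a two-sided p below 0.333, so none was run.

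Among the DCIR family, *Clec4a2* and *Clec4a3* were lower with G-CSF, their means by -23.7% and -25.5%. *Clec4a2*, which encodes the ITIM receptor DCIR1, stood at 47.619 and 54.383 FPKM in Control and at 37.818 and 39.971 FPKM with G-CSF (log2 fold change -0.39, standard error 0.0732, limma adjusted p = 0.014), and its call held under all 12 alternatives. *Clec4a3*, a DCIR family gene, stood at 25.273 and 28.387 FPKM in Control and at 18.501 and 21.473 FPKM with G-CSF (-0.42, standard error 0.0921, limma adjusted p = 0.021). Without Control replicate 2 or without G-CSF replicate 1, its adjusted p was 0.061 and 0.0603 (limma). The groups of both genes did not overlap.

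*Clec4a1*, another DCIR family gene, had a difference of the same size but more spread. Its values were 10.443 and 13.467 FPKM in Control and 7.91 and 9.952 FPKM with G-CSF, and its log2 fold change of -0.41 (standard error 0.152, 95% interval -0.78 to -0.05) had an adjusted p of 0.0915 (limma). It passed without Control replicate 1 (-0.60, adjusted p = 0.0326, limma) and without G-CSF replicate 2 (-0.58, adjusted p = 0.0442, limma), whereas the difference shrank without Control replicate 2 (-0.23, adjusted p = 0.308, limma) and without G-CSF replicate 1 (-0.25, adjusted p = 0.306, limma). *Clec12a* encodes the ITIM receptor MICL, which binds uric acid crystals. It stood at 97.925 and 90.266 FPKM in Control and at 86.427 and 78.49 FPKM with G-CSF (-0.19, standard error 0.0651, limma adjusted p = 0.0753), and passed in none of the fits that left out a library. In 7 members both G-CSF libraries lay below both Control libraries, which was so for 32.5% of all genes tested, and in 1 they lay above (33.9% of all genes tested).

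Reads of paralogs in the DCIR cluster could be assigned to the wrong gene where their transcripts share sequence, which was so for few windows. Of the 75-base windows of annotated transcripts, the length of the reads, 3.2% of those of *Clec4a2* and 1.0% of those of *Clec4b1* also occur in another gene, and 0.0% of those of the other 8 members do. For *Clec4a2* the main partner was *Clec4a4*, whose own windows were shared to 12.7% and which stood at 0.091 to 1.116 FPKM, below the filter.

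Beyond the members, a list of other C-type lectin genes held more lower than higher genes with G-CSF. Of 26 genes on this list, 14 were tested (median log2 fold change -0.48). At an adjusted p of 0.05, 9 were lower and 0 higher, against 11.8% and 13.0% of all genes tested. The 5 that did not pass, named after their values were seen, were *Clec2i* (0.24), *Cd69* (-0.02), *Cd302* (-0.03), *Colec12* (-0.22) and *Clec10a* (-0.39). The 4 that also fell more than 2-fold were *Clec4b2*, *Cd209c* and, named after their values were seen, *Cd209a* and *Cd207*. Of these, *Cd207* passed the filter only through Control (26 and 20 estimated reads, against 4 and 9 with G-CSF). It therefore adds no support to these counts. *Clec4b2*, which encodes an activating receptor akin to DCAR, lies between *Clec4a2* and *Clec4n* in the complex. It stood at 20.434 and 19.303 FPKM in Control and at 8.356 and 9.031 FPKM with G-CSF (log2 fold change -1.18, standard error 0.0752, limma adjusted p = 0.000942), on at least 100 estimated reads per library, and 0.0% of its windows occur in another gene. *Clec4b1* was lower than *Clec4b2* in every library, at 38.7 and 34.9 FPKM per 100 FPKM of *Clec4b2* in Control and 50.7 and 56.1 with G-CSF. *Mgl2*, which encodes a galactose-type lectin, had a log2 fold change of -0.73 (limma adjusted p = 0.00274), and *Cd209c*, a relative of DC-SIGN, one of -1.13 (limma adjusted p = 0.00363).

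**Figure D3:**
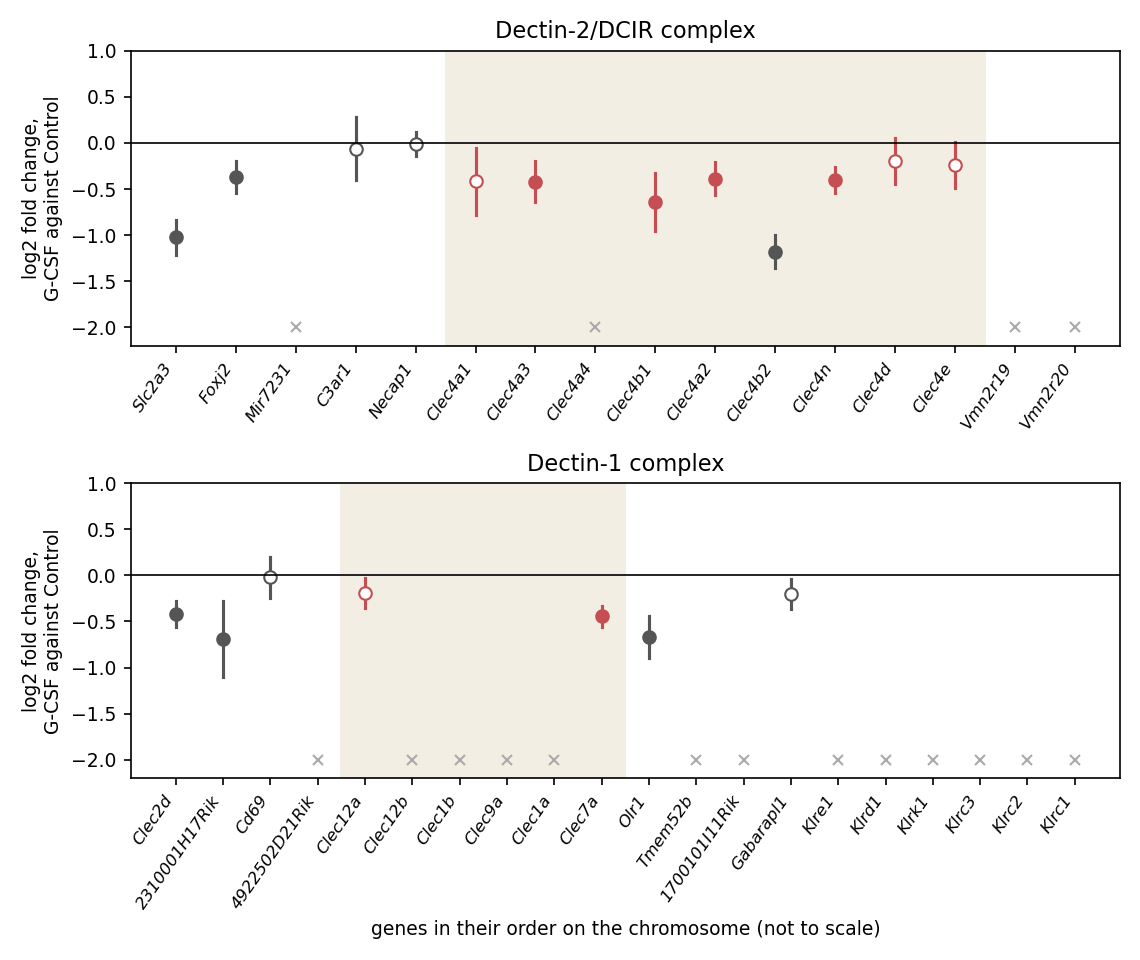
Log2 fold change (G-CSF against Control, with 95% intervals) of the genes of both receptor complexes and of the 200000 bases on either side, in their order on the chromosome (shaded, the complex from its first to its last member; red, members; grey, other genes; filled, adjusted p under 0.05 with limma; crosses at the bottom, genes below the filter). Within the shaded parts every tested gene lies below 0, *Clec4b2* farthest.

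Along the Dectin-2 complex, 9 genes lie between the start of *Clec4a1* and the end of *Clec4e*, and 8 of them were tested. Of these, 5 passed, each as lower (11.8% of all genes tested did). They were *Clec4a3*, *Clec4b1*, *Clec4a2*, *Clec4b2* and *Clec4n*, which were already counted above. In the Dectin-1 complex, of the 6 genes from *Clec12a* to *Clec7a* only these outer members passed the filter on low values. The 4 genes between them, *Clec12b*, *Clec1b*, *Clec9a* and *Clec1a*, stood at 1.725 FPKM or less in each library.

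The chains through which the activating members signal were lower as well. *Fcer1g* stood at 1233.05 and 1242.48 FPKM in Control and at 913.709 and 888.444 FPKM with G-CSF (log2 fold change -0.46, standard error 0.0479, limma adjusted p = 0.00353). *Tyrobp* stood at 1768.05 and 1760.56 FPKM in Control and at 1274.68 and 1406.42 FPKM with G-CSF (-0.40, standard error 0.0632, limma adjusted p = 0.00877). *Clec4n* stood at 82.4 and 88.2 FPKM per 100 FPKM of *Fcer1g* in Control and at 84.8 and 92.9 with G-CSF, ranges that overlap. *Clec5a* stood at 3.54 and 3.80 FPKM per 100 FPKM of its partner *Tyrobp* in Control and at 5.93 and 5.66 with G-CSF, ranges that do not. That gap follows from the higher *Clec5a* and the lower *Tyrobp* already given, and adds no evidence to them.

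In the list of adaptor chains and kinases next to the receptors, 7 of 15 genes were lower and 0 higher (median log2 fold change -0.22). Of all genes tested, 11.8% were lower and 13.0% higher. *Fgr*, a kinase of the Src family, was at -0.30 (limma adjusted p = 0.00905). *Syk* and *Card9*, named for their place in the pathway after their values were seen, had log2 fold changes of -0.20 (limma adjusted p = 0.0582) and -0.01 (limma adjusted p = 0.861, 95% interval -0.13 to 0.10). In the list of the CARD9, NF-κB and NFAT pathway, 8 of 22 genes were lower and 0 higher (median -0.16), against the same shares of all genes tested. *Relb*, an NF-κB subunit, was at -0.65 (limma adjusted p = 0.00455), its partner *Nfkb2* at -0.40 (limma adjusted p = 0.0103) and the NF-κB inhibitor gene *Nfkbia* at -0.37 (limma adjusted p = 0.0118).

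Of the genes that restrain these receptors, 2 of 7 were lower and 0 higher (median -0.13), against 11.8% and 13.0% of all genes tested. The 2 lower genes were *Dok2* (-0.37) and *Dok3* (-0.43), adaptors that damp tyrosine kinase signals, each with an adjusted p of 0.00503 (limma). *Ptpn6*, which encodes the phosphatase SHP-1 that ITIMs recruit and was named after its values were seen, was at -0.13 (limma adjusted p = 0.0942). Of the cytokine, chemokine and early response genes that the receptors can induce, 11 of 16 were tested. Of these, 3 were lower and 0 higher (median -0.41), against the same shares of all genes tested. The 3 lower genes were the early response genes *Egr1* (-0.81, limma adjusted p = 0.0108) and *Egr2* (-0.59, limma adjusted p = 0.00589) and the chemokine gene *Ccl3* (-0.54, limma adjusted p = 0.0188). The median also includes *Il12b* (-0.74, not passed), which met the filter only through Control (10 and 11 estimated reads, against 7 and 4 with G-CSF). The cultures received no ligand of these receptors as a treatment.

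**Figure D4:**
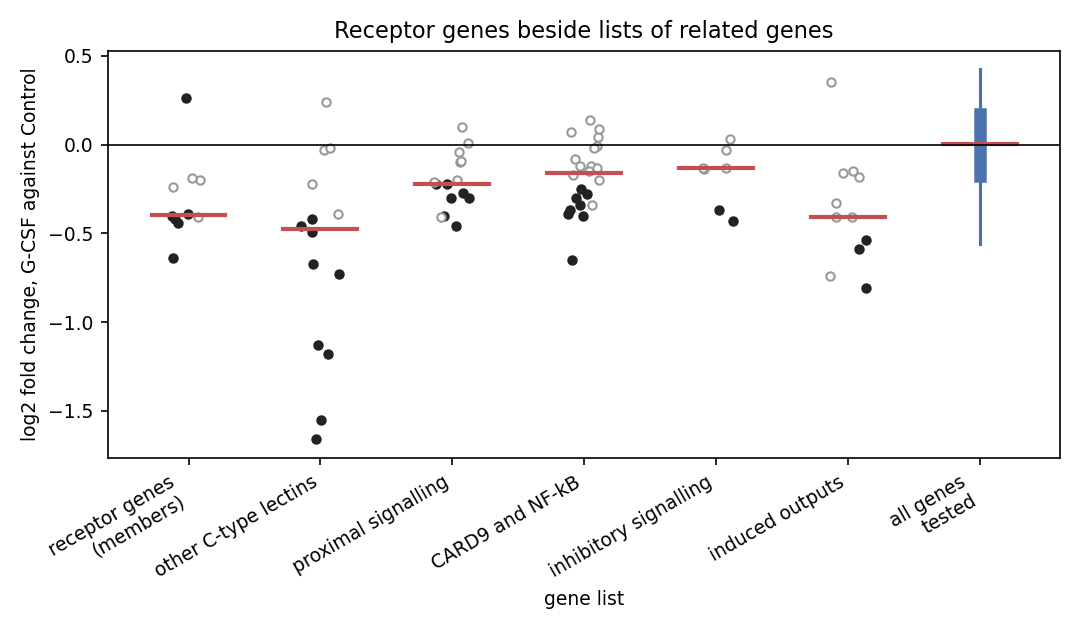
Log2 fold change (G-CSF against Control) of each tested gene of the receptor list and of 5 lists of related genes (filled, adjusted p under 0.05 with limma; open, not passed; red bar, median), beside all genes tested (red bar, median; thick bar, middle 50%; thin bar, middle 90%). The medians of the 6 lists lie between -0.48 and -0.13, and the median of all genes lies at 0.003.

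Genes of several cell types were lower in the same libraries. The counts below stand against 11.8% of all genes tested that passed as lower and 13.0% as higher. Of the neutrophil list, 8 of 9 genes were lower, and their summed level was 12367.7 to 13249.2 FPKM in Control and 7582.7 to 8153.2 FPKM with G-CSF. Of the dendritic cell list, 6 of 10 were lower (sums 2983.4 to 3500.7 and 1562.4 to 1938.5 FPKM). They were *Batf3*, *Itgax* and the MHC class II pathway genes *Cd74*, *H2-Aa*, *H2-Ab1* and *H2-Eb1*, which made up most of these sums. *Flt3*, *Zbtb46*, *Xcr1* and *Ccr7* did not pass. All 10 were named after their values were seen. Of the macrophage list, 5 of 8 were lower (526.5 to 542.2 and 434.3 to 448.2 FPKM). Of the monocyte list, 2 of 9 genes were lower and 1 higher (1516.6 to 1565.1 and 1391.3 to 1460.6 FPKM). Mast cell and basophil genes (5 of 6 lower, 135.3 to 137.8 and 84.7 to 94.5 FPKM, *Tpsab1* at 0) and eosinophil genes (2 of 3 lower, 260.6 to 338.7 and 162.3 to 207.8 FPKM) were at lower levels. Lymphocyte genes summed to 4.01 FPKM or less (2 of 3 tested genes lower, *Ncr1* at 0) and erythroid genes to 1.79 FPKM or less (0 tested), and of the CD11b+ Gr-1+ list 3 of 6 genes were lower. The lymphocyte gene *Cd3d* passed the filter only through Control (15 and 17 estimated reads, against 8 and 7 with G-CSF). Apart from this 1 gene of the monocyte list, no tested gene of these lists passed as higher. The receptor genes are used by several of these cells, and the part of each cell type in their differences was not tested.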

How the data were processed

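RNA-seq libraries (TruSeq stranded mRNA, 75-base single reads) of *in vitro* MDSCs were compared between 2 Control and 2 G-CSF cultures, with replicate numbers taken from the labels. The authors deposited 1 table per library, whose values were taken as FPKM because they are not whole numbers and rise in steps that depend on transcript length. The submitters' processing notes name TopHat2 2.0.13, Bowtie2 2.2.3, SAMtools 0.1.19, Cufflinks 2.2.1 and mm10; the annotation is not given in the sources used here.

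Reads were estimated from FPKM and median transcript length in GENCODE M21 (GRCm38; 23957 of 24346 genes found, 23310 by their own name), less 210 bases, since 66.3% of 1976 low values then lay within 0.05 reads of a whole number (10.0% if evenly spread). The test took in genes reaching 10 estimated reads in any 2 libraries and summing to 15 or more, small RNA genes and transcripts of 200 bases or fewer apart. limma 3.58.1 (R 4.3.3; lmFit, eBayes with trend) compared log2(FPKM + 0.1) between groups, two-sided, with Benjamini-Hochberg adjustment; the pseudocount draws the fold changes of low genes toward 0. The model was also run on simulated libraries. Their spread between replicates was set rather than taken from these data, so the run does not measure the errors of the test here. Thresholds were an adjusted p of 0.05 and, for larger changes, a 2-fold change.

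The members and lists were chosen with earlier results of these data known. Named were all members and, of each pathway list, the 3 passed genes with the smallest p, with exceptions stated beside the gene. Promoters came from RefSeq. Python 3.11.15 with pandas 2.3.3 and matplotlib 3.10.9 was used. The alternatives were other pseudocounts, filters and scalings, limma voom on estimated reads, a replicate block, and each library left out, which assumes that a lone library varies like the other group.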

Additional observations from a re-analysis of the deposited data

How the results depend on the processing

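No member changed the sign of its log2 fold change in any of 12 alternatives each. Of these 120 values, 103 stayed on the same side of an adjusted p of 0.05, 9 lost the call and 8 gained it; *Clec4a2*, *Clec4n* and *Clec7a* stayed on theirs in every alternative. Members lower with G-CSF numbered 5, but 3 with no filter on low values, where *Clec4a3* (adjusted p = 0.0631, limma) and *Clec4b1* (adjusted p = 0.0553, limma) were lost; *Clec4b1* was also lost with limma voom (adjusted p = 0.0561). When single libraries were omitted, 3 to 8 members were lower and 0 to 1 higher, against 6.48% to 8.89% and 6.78% to 8.18% of all genes tested. With the replicate number as a replicate block, 9 members were lower and 1 higher, so that all 10 passed, *Clec4d* (adjusted p = 0.037, limma) and *Clec4e* (adjusted p = 0.00639, limma) included; of all genes tested, 16.7% were then lower and 17.5% higher, more than the 11.8% and 13.0% without the block. Libraries with the same number deviated together from their group means (r = 0.264 across genes, which are not independent replicates), but 2 pairs that share only a number do not show that the samples are paired.

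All genes called numbered 161 (58 higher, 103 lower), 57 with a pseudocount of 1 FPKM and 107 with at least 10 estimated reads in every library. Of the other C-type lectins, 1 (*Clec2i*) was higher with the replicate block. Of the inhibitory signalling list, 4 genes were lower with the block and 4 with upper-quartile scaling (*Ptpn6* and *Inpp5d* besides *Dok2* and *Dok3*), and of the induced outputs 5 with the block (*Tnf* and *Cxcl2* besides the 3). The cause was not tested. The median of all genes was -0.021 with upper-quartile scaling, -0.002 with median-ratio scaling and 0.021 with limma voom. Depth limits *Clec4b1* most, which had the fewest reads.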

Other observations

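The flanks of the Dectin-2 complex, taken as 200000 bases on either side, hold genes that are no lectins. *Slc2a3*, which encodes the glucose transporter GLUT3, stood at 33.885 and 29.586 FPKM in Control and at 16.031 and 15.093 FPKM with G-CSF (log2 fold change -1.02, standard error 0.0801, limma adjusted p = 0.0017). *Foxj2*, a forkhead transcription factor gene beside it, was at -0.37 (limma adjusted p = 0.015). *C3ar1*, the receptor for the complement fragment C3a, and *Necap1*, an endocytosis gene, lie between these genes and *Clec4a1* and had log2 fold changes of -0.06 and -0.01, with 95% intervals of -0.40 to 0.28 and -0.14 to 0.12. These genes were chosen by position after the values of the members had been seen.

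Around the Dectin-1 complex, *Clec2d*, the gene of a ligand of an NK cell receptor, was at -0.42 (limma adjusted p = 0.00581), and *Olr1*, the gene of the oxidised LDL receptor LOX-1, at -0.67 (limma adjusted p = 0.00668, on 27 or more estimated reads per library). *Cd69*, an early activation marker, was at -0.02 (limma adjusted p = 0.903). *Clec2d*, *Olr1* and *Cd69* are also on the list of other C-type lectins and were counted there. *Gabarapl1* was at -0.20 (limma adjusted p = 0.0694). The lincRNA gene *2310001H17Rik* was at -0.69 (limma adjusted p = 0.0297).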
